A study of Mus musculus with 10 samples.

Results

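The genes described here are 39 complement and coagulation factors made by the liver, 19 of the complement cascade and 20 of blood clotting, taken by name from a count table of 12148 genes. All 39 were in the table and all 39 passed the filter of at least 20 counts summed over the livers, as did 12147 genes in all. The mice were germ-free (GF) wild-type C57BL/6 animals, so that the controls, like the treated mice, lacked a gut microbiota. Mice in the GF+MEV group received 80 μg of microbiota-derived extracellular vesicles (MEV), membrane particles shed by gut bacteria and purified from cecal content or stool, by mouth in PBS, 2 doses per week for 3 weeks, and GF+PBS mice received PBS alone. Whole liver was taken from 5 mice per group, with 1 library per mouse, in 1 experiment, and the age and sex of these GF mice were not given in the sources used here. The comparison asked how oral exposure to MEV altered the liver transcriptome, and here it is described for complement and clotting.

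Complement is a cascade of plasma proteins, mostly secreted by hepatocytes, in which the classical and lectin pathways and the alternative pathway all cleave C3. Cleavage of C5 then starts the terminal pathway, in which C6, C7, C8 and C9 assemble a pore in a target membrane. Coagulation is likewise a cascade of liver-made proteases, their cofactors and their inhibitors, which ends with thrombin cutting fibrinogen into fibrin, and plasmin later dissolves the clot.

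Expression is given as CPM, a gene's count per 1000000 counts of its library after edgeR's TMM scaling, and a log2 fold change is GF+MEV over GF+PBS. A gene is called where the Benjamini-Hochberg adjusted p-value of edgeR's quasi-likelihood test, over all 12147 tested genes, was under 0.05. Libraries held 15746119 to 20523649 counts on genes. GF+MEV replicate 2 stood apart from the rest of its group, with a chi-square per gene of 135 to 176 against the 4 other GF+MEV livers, which differed among themselves by 8.22 to 21.4. In that library the gene ENSMUSG00000106106 took 6.96% of the counts, against 0.128% to 0.323% in the other libraries, and the mitochondrial ribosomal RNA genes mt-Rnr1 and mt-Rnr2 took 0.0971% and 0.125%, against at most 0.0160% and 0.0300%. GF+PBS replicates 1 and 3 were closest to each other, as were replicates 4 and 5, with a chi-square per gene of 6.36 to 7.20 against 8.57 to 25.0 for the other pairs of that group, so a fit that summed each such pair into 1 sample is given beside the results below. Both pairs differed by more than counting error, so neither is a copy of 1 library. Hepatocyte markers were high in every liver (summed 111095 to 134260 CPM over 11 tested genes), as the tissue label says. In a whole tissue, fewer cells of a type and less RNA per cell cannot be told apart.

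Of the 39 factors, 4 were higher in GF+MEV livers and none was lower. The 4 were C6, C8a and C8b, which encode components of the membrane attack complex, and Pros1, which encodes the anticoagulant protein S. Across all tested genes, 4.12% were called higher, 3.52% lower and 7.64% in either direction, so the 4 of 39 members (10.3%) stand beside a background of 7.64%. Complement held 3 calls among 19 genes (15.8%) and coagulation 1 among 20 (5%), the latter close to the background. At an unadjusted p under 0.05 the edgeR test gave 7 of 39 members, 6 higher and 1 lower, which is 17.9% against 21.2% of all tested genes. The median log2 fold change was 0.065 over the complement genes, 0.033 over the coagulation genes and -0.0037 over all tested genes. An estimate smaller than 0.2 in size was found for 33 of 39 members (84.6%), against 69.2% of all tested genes. The direction of small estimates depended on the scaling, since 15 of 19 complement and 16 of 20 coagulation estimates lay above 0 with TMM, but 9 and 7 when counts were scaled by library size alone, which moved the median over all genes to -0.078.

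**Figure D1:**
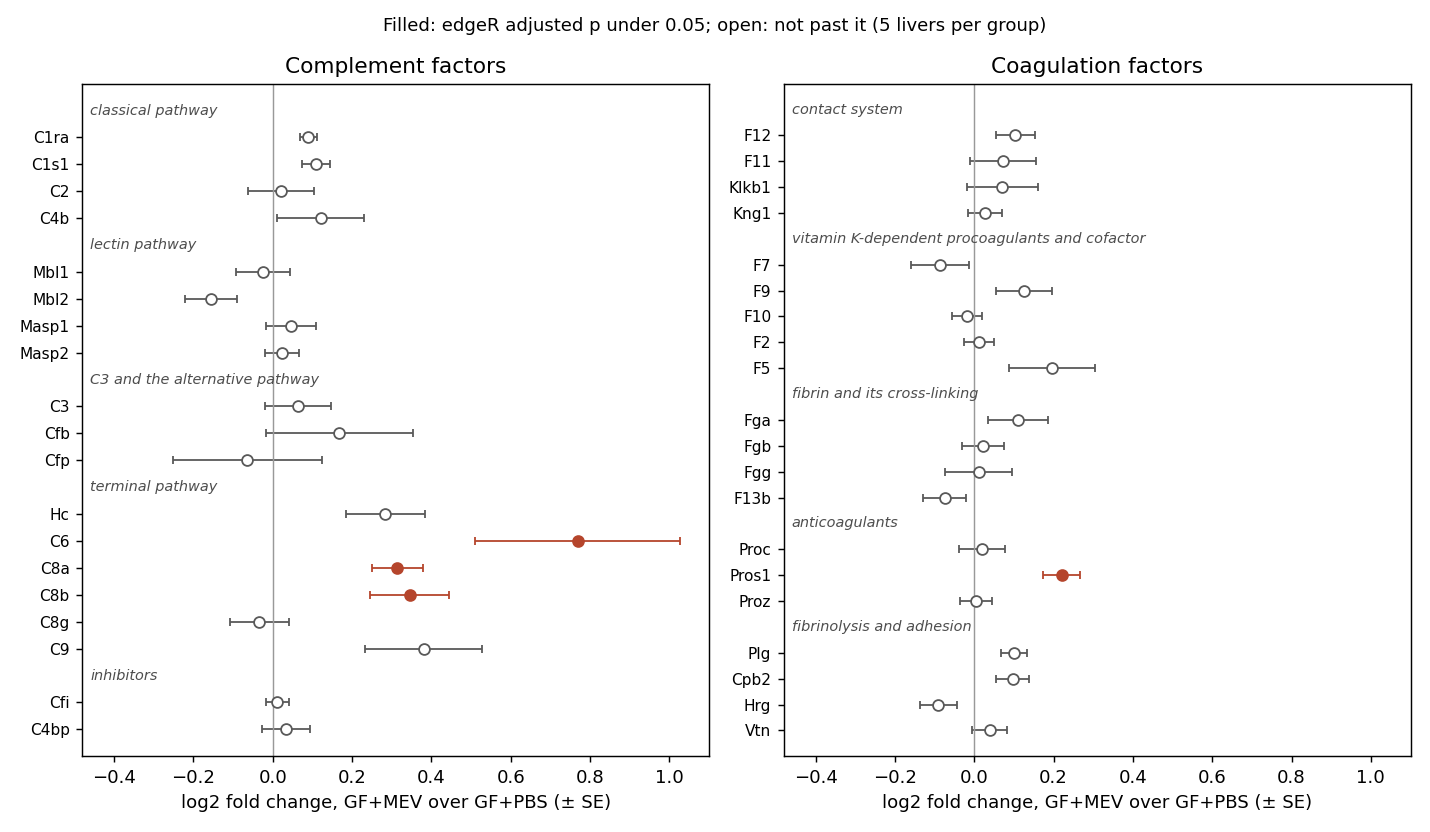
Log2 fold change of each factor, GF+MEV over GF+PBS, on the horizontal axis with its standard error as a bar, grouped by role, for 5 livers per group. Filled points passed an edgeR adjusted p of 0.05: C6 (0.77), C8a (0.31) and C8b (0.35) in the terminal pathway and Pros1 (0.22) among the anticoagulants, while most other factors lie within 0.2 of 0.

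The terminal pathway held all the complement calls. Of its 6 measured genes, C6, C8a and C8b were higher in GF+MEV livers, while Hc, C9 and C8g did not pass the test, and the median log2 fold change of the 6 was 0.33. The C8 protein is built of 3 chains encoded by separate genes, and C8a and C8b encode the α and β chains, which belong to the same protein family as C6 and C9. C8a (ENSMUSG00000035031) lies at chr4:104815679-104876398 on the minus strand of GRCm38 and C8b (ENSMUSG00000029656) at chr4:104766317-104804548 on the plus strand, so that their 3′ ends face each other across 11130 bases. C6 (ENSMUSG00000022181) lies at chr15:4727175-4814967 on the plus strand.

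The bases upstream of these 3 genes and of Pros1 are shown because they were the factors called. The sequences are from RefSeq on GRCm38.p6, 5′ to 3′ on the strand of the gene, and end at the base before the transcription start, which for C8a is chr4:104876399-104876648, for C8b chr4:104766067-104766316 and for Pros1 chr16:62854057-62854306. For C6 the annotations differ in the start, and the 215 bases shown, chr15:4726960-4727174, end before the more upstream one. Capitals mark every match, on either strand, to the motifs searched.
C6: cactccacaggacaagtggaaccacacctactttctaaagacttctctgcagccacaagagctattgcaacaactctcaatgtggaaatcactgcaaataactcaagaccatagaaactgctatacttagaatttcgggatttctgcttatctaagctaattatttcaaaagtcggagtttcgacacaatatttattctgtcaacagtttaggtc
C8a: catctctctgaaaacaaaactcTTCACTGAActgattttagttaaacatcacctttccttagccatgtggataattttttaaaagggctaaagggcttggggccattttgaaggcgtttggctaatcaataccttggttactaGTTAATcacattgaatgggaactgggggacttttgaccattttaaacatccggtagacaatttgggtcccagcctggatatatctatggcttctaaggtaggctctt
C8b: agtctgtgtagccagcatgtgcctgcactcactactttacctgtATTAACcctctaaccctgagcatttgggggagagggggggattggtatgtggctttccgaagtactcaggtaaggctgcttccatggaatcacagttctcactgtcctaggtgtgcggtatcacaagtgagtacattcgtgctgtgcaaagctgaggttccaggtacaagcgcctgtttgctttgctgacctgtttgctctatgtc
Pros1: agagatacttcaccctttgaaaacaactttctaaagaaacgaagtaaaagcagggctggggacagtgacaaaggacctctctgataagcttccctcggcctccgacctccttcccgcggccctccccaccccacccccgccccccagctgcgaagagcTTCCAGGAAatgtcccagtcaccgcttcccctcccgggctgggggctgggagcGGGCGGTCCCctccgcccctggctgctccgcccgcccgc

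The search covered 9 motifs on both strands of 300 bases, from 250 before to 50 after the RefSeq start, in 32851 mouse promoters. The HNF1 core GTTAAT was present in 7.10% of all promoters and in 12 of the 31 members with a promoter in the table, the STAT motif TTCNNNGAA in 8.30% and in 8 members, and the NF-kB motif (GGGA, any 4 bases, CC) in 20.7% and in 6 members. The C/EBP core TTGCNNAA was present in 10.8% of promoters and 11 members, and the glucocorticoid receptor core TGTTCT in 19.0% and 12 members. The members had 33 promoters. Counted per promoter, the shares were 36.4% (HNF1 core), 24.2% (STAT), 21.2% (NF-kB), 33.3% (C/EBP core) and 39.4% (glucocorticoid receptor core). The full HNF1 site (GTTAAT, any base, ATTAAC), the HNF4 site CAAAGTCCA, the C/EBP site TTGCGCAA and the glucocorticoid receptor site (AGAACA, any 3 bases, TGTTCT) were found in no member and in 0.00913%, 0.475%, 0.183% and 0.00913% of all promoters. The full HNF1, C/EBP and glucocorticoid receptor sites contain their cores. In C8a the capitals are a STAT match 228 to 220 bases before the start and an HNF1 core 107 to 102 bases before it. C8b held an HNF1 core on the opposite strand, 206 to 201 bases before the start. Pros1 held a STAT match at 92 to 84 and an NF-kB match at 39 to 30 bases before the start, and C6 held none of the 9. A match is a string of letters and not a bound site, and its absence says only that these letters are not in this window.

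C8a was the most clearly separated of the complement genes. Its expression was 616, 644, 673, 735 and 621 CPM in GF+MEV replicates 1 to 5 and 481, 578, 543, 509 and 536 CPM in GF+PBS replicates 1 to 5. The groups did not overlap. The same held for 4 of the 39 factors (C1ra, C8a, C8b and Pros1), all of them higher in GF+MEV, against 7.39% of all tested genes, of which 3.94% were higher and 3.45% lower. The means were 658 ± 48.5 and 529 ± 36.4 CPM (SD, n = 5 each), a ratio of 1.24 (log2 fold change 0.31, SE 0.064, edgeR adjusted p = 0.0098). C8b, its neighbour, was at 410.4, 401, 393, 529 and 385 CPM in GF+MEV livers and 355, 348, 357, 307 and 299.6 CPM in GF+PBS livers. These groups did not overlap either, with replicate 4 far above the other 4 GF+MEV livers, and the means were 424 ± 59.5 and 333 ± 27.7 CPM (SD, n = 5 each, log2 fold change 0.35, SE 0.100, edgeR adjusted p = 0.027).

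C6, which joins C5b and begins the membrane-bound complex, had the highest log2 fold change of the 39 factors and a wide spread between livers. Its expression was 196, 301, 206, 306 and 137 CPM in GF+MEV replicates 1 to 5 and 161, 136, 165, 106 and 104 CPM in GF+PBS livers. Replicates 2 and 4 of GF+MEV were at 301 and 306 CPM, whereas replicate 5 lay inside the GF+PBS range, so the groups overlapped. The means were 229 ± 72.7 and 134 ± 29.1 CPM (SD, n = 5 each), a ratio of 1.70 (log2 fold change 0.77, SE 0.26, edgeR adjusted p = 0.027). The C6 call was lost in edgeR without GF+MEV replicate 2 (adjusted p = 0.069), without GF+MEV replicate 4 (0.066), without GF+PBS replicate 4 (0.075) or 5 (0.059), and with the alike GF+PBS livers summed (0.085). C8a kept its call in all of these edgeR fits, at an adjusted p of 0.014 without GF+MEV replicate 2 and 0.046 with the alike livers summed, and lost it only when counts were scaled by library size alone (0.084). C8b was past the edgeR threshold without GF+MEV replicate 2 (adjusted p = 0.036) and without GF+MEV replicate 4, the liver that stood highest (log2 fold change 0.25, adjusted p = 0.037), but not with the alike livers summed (0.090), without GF+PBS replicate 4 (0.073) or 5 (0.060), or with the upper-quartile (0.054) or library-size scaling (0.11).

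Hc, the mouse gene for C5, and C9, which polymerises into the pore, were not called in the edgeR fit. Hc was at 587, 617, 666, 764 and 567 CPM in GF+MEV livers and 460.1, 600.2, 537, 498 and 533 CPM in GF+PBS livers, with 3 of 5 GF+MEV livers above the highest GF+PBS liver (log2 fold change 0.28, SE 0.099, edgeR adjusted p = 0.066). C9 was at 316, 302, 326, 473 and 268 CPM and 287, 267, 268, 238 and 236 CPM, with 4 of 5 above the highest control (log2 fold change 0.38, SE 0.15, edgeR adjusted p = 0.078). Both passed the threshold in DESeq2's Wald test, with adjusted p-values of 0.024 for Hc and 0.032 for C9, and in edgeR without GF+MEV replicate 5 (0.046 and 0.035). Hc also passed it without GF+PBS replicate 2 (edgeR adjusted p = 0.034).

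C8g, which encodes the γ chain of C8, a lipocalin unrelated to the α and β chains, did not pass the test. It ranged from 371 to 449.9 CPM in GF+MEV and from 362 to 449.8 CPM in GF+PBS livers (log2 fold change -0.034, SE 0.074, edgeR adjusted p = 0.84), with a 95% interval from limma-voom of -0.18 to 0.12. Within each liver, C8a over C8g was 0.35 higher on the log2 scale in GF+MEV (exact two-sided permutation test, p = 0.040), C8b over C8g 0.37 higher (exact p = 0.016) and C9 over C8g 0.39 higher (exact p = 0.032). These were among 7 ratios tested, and after Benjamini-Hochberg adjustment over the 7 each of these exact p-values was 0.069. The ratios reuse the values of the tests above, so they are not separate evidence, and the adjustment does not cover the choice of genes. The ratio of C8a to C8b differed by -0.026 (exact p = 0.77, adjusted 0.90). C7, which follows C6 in the complex, was not among the tested genes.

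**Figure D2:**
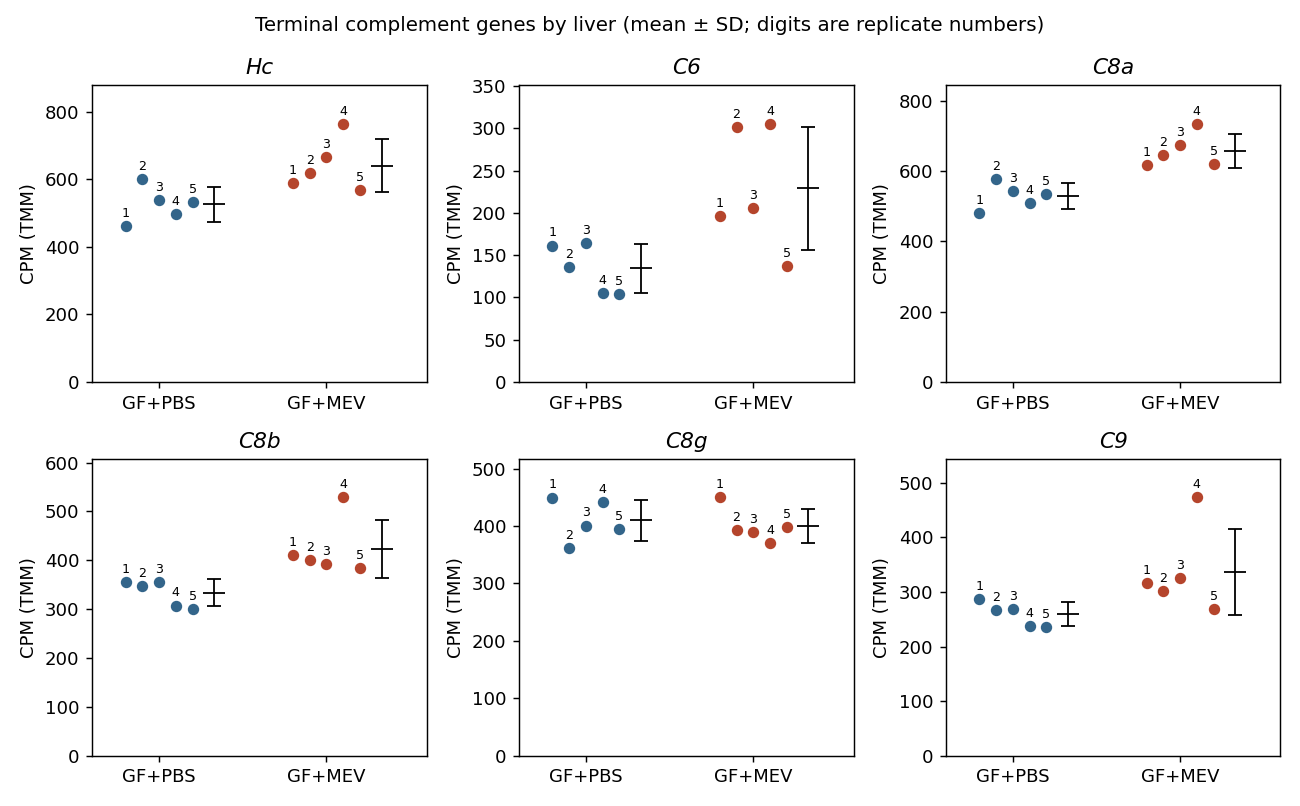
Expression of the 6 terminal pathway genes in CPM on axes that start at 0, with 1 point per liver, its replicate number above it, and the mean and SD at the side of each group of 5. All 5 GF+MEV livers lie above all GF+PBS livers for C8a and C8b, GF+MEV replicate 4 is the highest liver for Hc, C6, C8a, C8b and C9, and C8g does not separate the groups.

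Summed over the 6 genes, the terminal pathway reached 2378 to 3177 CPM in GF+MEV and 2100.3 to 2291 CPM in GF+PBS livers, without overlap. The sum holds the called C6, C8a and C8b, so its separation restates those calls and is not further evidence. GF+MEV replicate 4, the highest in this sum, was also the highest of its group for 17 of the 39 factors. In the same liver the 12 Kupffer cell markers summed to 551 CPM, against 301 to 374 CPM in the other GF+MEV livers and 342 to 483 CPM in GF+PBS livers, and the hepatocyte markers had their lowest sum, 111095 CPM. None of the 12 Kupffer cell markers was called between the groups, and all were detected in every liver. Without this liver the log2 fold change was 0.27 for C8a (edgeR adjusted p = 0.022), 0.21 for Hc (0.14) and 0.23 for C9 (0.099).

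None of the 4 classical pathway genes was called. C1ra and C1s1 encode the proteases of the C1 complex, and C2 and C4b the components of the C3 convertase that they assemble. C1ra was higher in all 5 GF+MEV livers than in any GF+PBS liver, by a small margin, 306 to 329 against 292 to 305 CPM (log2 fold change 0.090, SE 0.021, edgeR adjusted p = 0.30). The log2 fold change was 0.11 (edgeR adjusted p = 0.25) for C1s1, 0.021 (edgeR adjusted p = 0.93) for C2 and 0.12 (edgeR adjusted p = 0.52) for C4b. GF+PBS replicate 2 had 1441 CPM of C4b while the other controls lay between 1105 and 1167 CPM. Reads of C1ra, C1s1, C2 and C4b may be split with other genes or go uncounted. Of their 50-base stretches, 50.8%, 21.8%, 38.7% and 34.6% also occur in another gene, chiefly C1rb, C1s2, Gm20547 and C4a. C1rb, C1s2 and C4a are close copies, whereas Gm20547 overlaps C2 on the same strand. Of these other genes only C4a was in the count table.

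In the lectin pathway, where mannose-binding lectins recognise microbial sugars and act through the MASP proteases, Mbl2 had the lowest estimate of the 39 factors and was not called. Mbl2 was at 397, 373, 359.8, 324 and 419.6 CPM in GF+MEV and 418, 404, 415, 431 and 418 CPM in GF+PBS livers. The controls were close together, 4 GF+MEV livers were below all of them, and replicate 5 lay within their range (log2 fold change -0.16, SE 0.065, edgeR adjusted p = 0.19). Mbl1, the other mannose-binding lectin, was estimated at -0.024 (edgeR adjusted p = 0.89) on the log2 scale, and the ratio of Mbl2 to Mbl1 differed by -0.14 on the log2 scale (exact two-sided permutation p = 0.25). The proteases Masp1 and Masp2 had log2 fold changes of 0.047 (edgeR adjusted p = 0.74) and 0.023 (edgeR adjusted p = 0.86). Of the exon bases of Masp2, 1817 overlap a gene on the other strand, and whether the counting used strand is not given in the sources used here.

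C3, on which the pathways converge, was by far the most abundant complement transcript and did not pass the test. Its expression was 7251, 6348, 7857, 7121 and 7428 CPM in GF+MEV livers and 5957, 7850.3, 6561, 7119 and 6939 CPM in GF+PBS livers. The ranges overlapped almost entirely, the mean was 7201 ± 552 against 6885 ± 699 CPM (SD, n = 5 each), and the log2 fold change was 0.065 (edgeR adjusted p = 0.69) with a limma-voom 95% interval of -0.091 to 0.23. Cfb, the protease of the alternative pathway, was at 1.1 to 2.06 CPM in every liver, from as few as 16 counts, and its log2 fold change of 0.17 (edgeR adjusted p = 0.70) had an interval of -0.30 to 0.61. Its counts are uncertain, because 73.0% of its 50-base stretches are shared with the overlapping gene Gm20547, which was not in the table, so reads matching both could have gone uncounted. Cfp, which encodes properdin and is known from myeloid cells, ranged from 15.8 to 29.1 CPM in GF+MEV and 18.3 to 25.9 CPM in GF+PBS livers, with its highest value in GF+MEV replicate 4 (log2 fold change -0.064, SE 0.19, edgeR adjusted p = 0.87).

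The 2 measured inhibitors, Cfi, the protease that inactivates C3b and C4b, and C4bp, its cofactor for C4b, were close between groups. The log2 fold change was 0.012 (edgeR adjusted p = 0.93) for Cfi, with an interval of -0.088 to 0.11, and 0.034 (edgeR adjusted p = 0.83) for C4bp, with an interval of -0.10 to 0.16. Cfi varied little among the controls, from 545 to 577 CPM, a coefficient of variation of 2.16%.

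Among the coagulation factors the one call was Pros1 (ENSMUSG00000022912), at chr16:62854307-62929346 on the plus strand of GRCm38. It encodes protein S, the vitamin K-dependent cofactor of activated protein C. Pros1 was at 54.2, 52.1, 56.7, 59.4 and 57.8 CPM in GF+MEV replicates 1 to 5 and 48.9, 50.2, 49.4, 44.4 and 47.7 CPM in GF+PBS replicates 1 to 5. All GF+MEV livers were above all GF+PBS livers, by little, and the means were 56.0 ± 2.92 and 48.1 ± 2.28 CPM (SD, n = 5 each), a ratio of 1.16 (log2 fold change 0.22, SE 0.046, edgeR adjusted p = 0.034). The call was lost in 10 of 19 alternative fits, among them edgeR with the alike GF+PBS livers summed (adjusted p = 0.091), with library-size scaling (0.27) and without GF+MEV replicate 4 (0.079), and kept without GF+MEV replicate 2 (0.029). The other vitamin K-dependent anticoagulants, Proc, which encodes protein C, and Proz, which encodes protein Z, had log2 fold changes of 0.019 (edgeR adjusted p = 0.91) and 0.0047 (edgeR adjusted p = 0.98), with intervals of -0.11 to 0.15 and -0.10 to 0.12.

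The contact system, in which F12, Klkb1 (plasma prekallikrein) and Kng1 (kininogen) act upstream of F11, had no called gene. Log2 fold changes were 0.10 (edgeR adjusted p = 0.35) for F12, 0.073 (edgeR adjusted p = 0.64) for F11, 0.071 (edgeR adjusted p = 0.67) for Klkb1 and 0.027 (edgeR adjusted p = 0.85) for Kng1. F12 reached 705 CPM in GF+PBS replicate 4, with the other controls between 600.4 and 629 CPM. Of the 50-base stretches of Klkb1, 42.7% also occur in Gm45753, and 17.2% of those of Kng1 in Kng2.

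F7, F9, F10 and F2, the protease zymogens that carry γ-carboxyglutamate, and F5, the cofactor of factor Xa, were not called. F5 was at 453, 452, 511, 488 and 478 CPM in GF+MEV livers and 322, 468, 400.2, 410.3 and 479.6 CPM in GF+PBS livers. The 5 GF+MEV livers were close together and the controls spread from replicate 1, the lowest liver, to replicate 5, which exceeded 3 GF+MEV livers (log2 fold change 0.20, SE 0.11, edgeR adjusted p = 0.24). F9, the factor deficient in haemophilia B, was at 143, 139, 123, 159 and 149.6 CPM and 133, 137, 130.2, 119.7 and 136 CPM, with 4 of 5 GF+MEV livers above the highest control and replicate 3 below all but 1 of them (log2 fold change 0.12, SE 0.071, edgeR adjusted p = 0.33). The estimate was -0.087 (edgeR adjusted p = 0.54) for F7, which tissue factor activates, -0.018 (edgeR adjusted p = 0.89) for F10 and 0.012 (edgeR adjusted p = 0.94) for F2, which encodes prothrombin. For F10 and F2 the limma-voom 95% intervals, -0.12 to 0.089 and -0.095 to 0.12, span at most 0.12 to either side of 0.

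Fibrinogen is made of 3 chains whose genes lie together on chromosome 3, with 11026 bases between Fgg and Fga and 6513 between Fga and Fgb, and it is a classical acute-phase protein of the liver. Fga was at 4549, 4169, 4424, 4634 and 4133 CPM in GF+MEV livers and 4539, 3845, 4518, 3726 and 3679 CPM in GF+PBS livers (log2 fold change 0.11, SE 0.075, edgeR adjusted p = 0.43). Fgb was at 4741, 4406, 4773, 4883 and 4529 CPM and 4926, 4254, 4942, 4559.9 and 4298 CPM (log2 fold change 0.022, SE 0.054, edgeR adjusted p = 0.89). Fgg was at 2467, 2314, 2205, 2601 and 2401 CPM and 2785, 2069, 2526, 2297 and 2217 CPM (log2 fold change 0.011, SE 0.085, edgeR adjusted p = 0.96). None of the 3 chains was called, the groups overlapped for each, and the limma-voom 95% intervals were -0.034 to 0.26 for Fga, -0.098 to 0.15 for Fgb and -0.15 to 0.18 for Fgg. The sign of Fgb and Fgg turned with library-size scaling, to -0.051 and -0.063, where the median over all genes was -0.078. GF+PBS replicates 1 and 3 had the highest expression of all 3 chains in their group, and the same 2 livers had low Per3, 19.5 and 23.1 CPM against 57.7 to 68.1 CPM in the other controls, and high Arntl, 3.61 and 4.23 CPM against 1.18 to 1.92 CPM. These 2 livers were also the 2 highest controls for C6, C8b, C9, Mbl1, C4bp and Cpb2. Among the other terminal pathway genes, GF+PBS replicate 1 was the lowest control for Hc and C8a and the highest for C8g. Per3 and Arntl are genes of the circadian clock, and their part in the values of any of these factors was not tested. Fga over Fgb was 0.091 higher in GF+MEV on the log2 scale (exact two-sided permutation p = 0.024, adjusted over 7 ratios 0.069), whereas Fgg over Fgb differed by -0.0071 (exact p = 0.90). F13b, the carrier subunit of the enzyme that cross-links fibrin, was estimated at -0.075 (edgeR adjusted p = 0.52) on the log2 scale.

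Plg, which encodes plasminogen, the precursor of the enzyme that dissolves fibrin, was not called. Its expression was 2069, 1943, 2185, 2168 and 2145 CPM in GF+MEV livers and 1931, 1954, 1984, 2010.2 and 1933 CPM in GF+PBS livers, with 4 of 5 GF+MEV livers above all controls and replicate 2 within their range (log2 fold change 0.099, SE 0.033, edgeR adjusted p = 0.31). The estimate was 0.097 (edgeR adjusted p = 0.34) for Cpb2, a carboxypeptidase that slows fibrinolysis, -0.091 (edgeR adjusted p = 0.41) for Hrg, a histidine-rich glycoprotein that binds plasminogen and heparin, and 0.039 (edgeR adjusted p = 0.76) for Vtn, vitronectin, an adhesion protein that also binds the terminal complement complex.

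**Figure D3:**
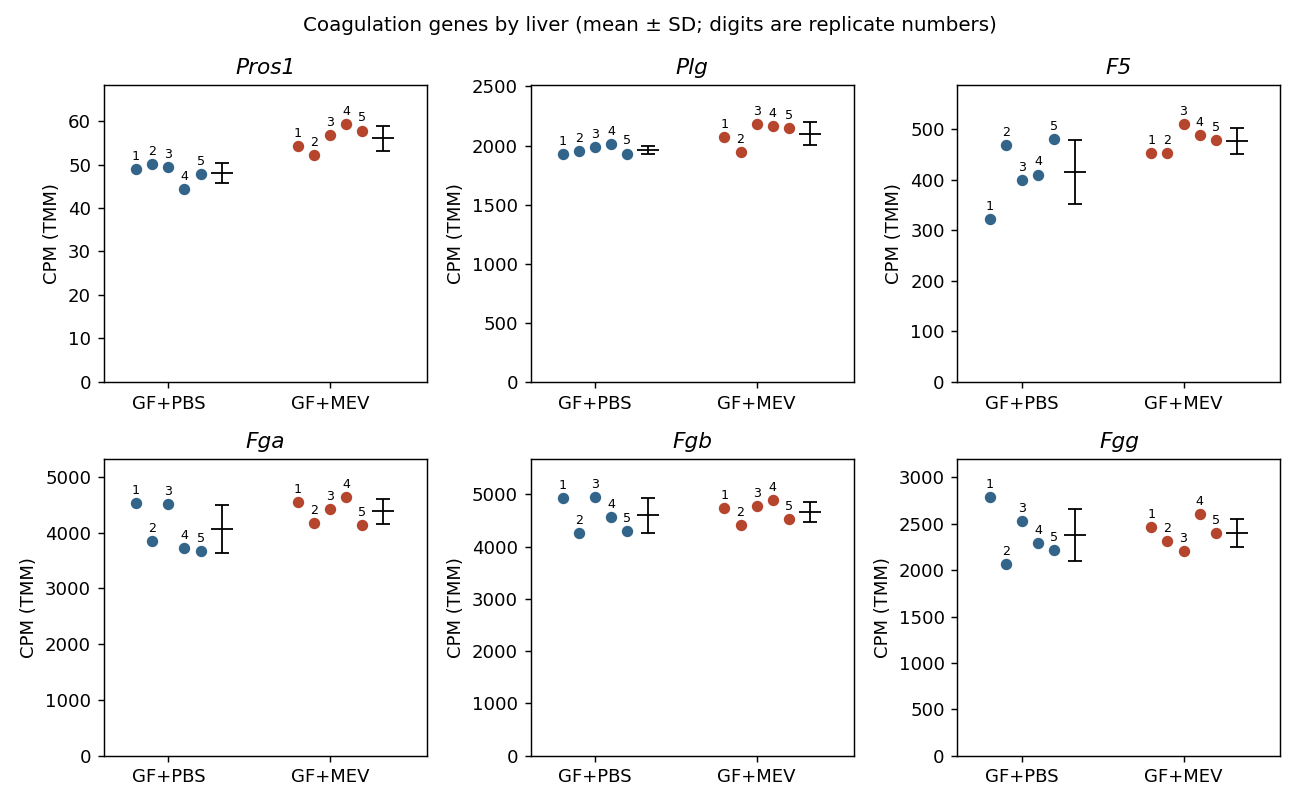
Expression of Pros1, Plg, F5 and the 3 fibrinogen chains in CPM on axes that start at 0, with 1 point per liver, its replicate number above it, and the mean and SD at the side of each group of 5. Pros1 separates the groups by a narrow margin, from 52.1 to 59.4 CPM in GF+MEV and 44.4 to 50.2 CPM in GF+PBS, and the other 5 genes overlap.

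The livers also differed from each other in ways that cut across the groups. The median coefficient of variation among the controls was 8.40% for the complement genes and 5.65% for the coagulation genes, against 10.9% for all tested genes, and 7.86%, 5.16% and 10.6% among GF+MEV livers. The 39 genes together took 3.31% to 4.03% of all counts in a liver. The complement sum was 12861 to 14529 CPM in GF+MEV and 11880 to 14192 CPM in GF+PBS livers, and the coagulation sum 24320 to 25463 and 23191 to 25414 CPM, overlapping in both. The 3 fibrinogen chains summed to 10888 to 12118 CPM in GF+MEV and 10168 to 12249 CPM in GF+PBS livers.

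**Figure D4:**
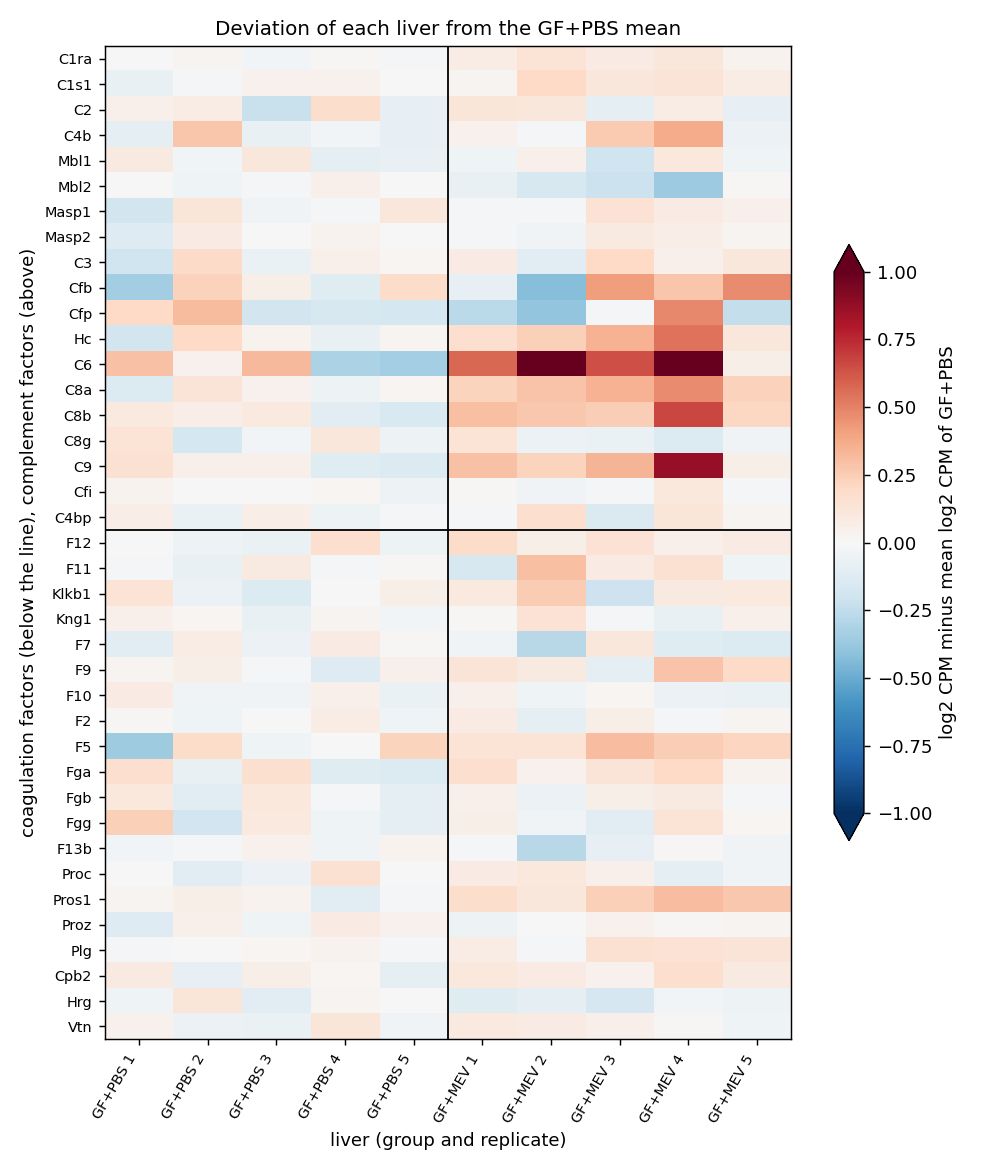
Difference of each liver from the GF+PBS mean in log2 CPM, with livers as columns (GF+PBS left, GF+MEV right of the line) and factors as rows; red is higher and blue lower, and the colour is capped at 1 in size. The red block in GF+MEV covers Hc, C6, C8a, C8b and C9 but not C8g, and is deepest in replicate 4. In GF+MEV replicate 5, C6 (137 CPM) and C9 (268 CPM) are close to the GF+PBS means of 134 and 259 CPM. Most coagulation rows are pale in all 10 livers.

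Per length, as CPM per kb of exon and averaged over the 10 livers, the order within complement ran from C3 (1369), Mbl2 (364), C8g (271) and Cfi (255) at the top to Cfp (11.8), C2 (2.26) and Cfb (0.560) at the bottom. C8a (163) and C8b (149) were lower than C8g on this scale, and C6 (51.1) lower than both. C3 made up 38.9% of the complement sum per length. Within coagulation the order ran from Fga (1402), Fgb (1215), Vtn (1153) and Fgg (1141), through Kng1 (637), Plg (548) and F2 (466), down to F9 (50.1), Klkb1 (29.0) and Pros1 (12.7), the lowest. Neighbours in this order, such as Vtn and Fgg or F5 and F11, differed by less than the spread between livers. C3 and the 3 fibrinogen chains lay at percentiles 99.6 to 99.7 of all tested genes, and Cfb at percentile 12.1. C2, Cfb and Klkb1 each overlap another gene on the same strand, so reads may have gone uncounted and their low ranks are uncertain.

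**Figure D5:**
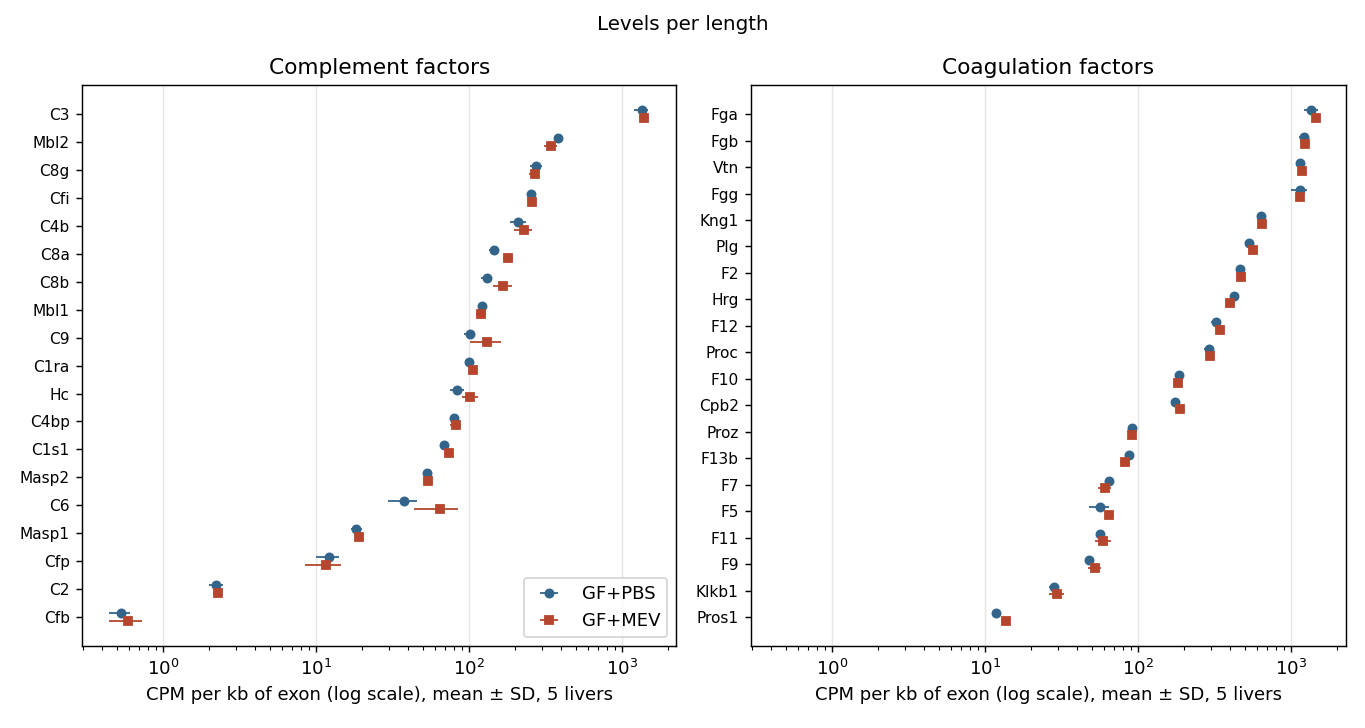
Levels of the 39 factors in CPM per kb of exon on a log axis, as mean and SD over 5 livers per group, ordered within each system by the mean of all 10 livers. The factors span from 0.560 for Cfb to 1402 for Fga, and the group means are close for most of them, with C6 showing the widest gap. The low levels of Cfb, C2 and Klkb1 may be undercounts, since each overlaps another gene on the same strand.

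Other genes of the same systems were counted from lists of general knowledge. Of 31 further complement genes 24 were tested, with a median log2 fold change of -0.031. The 3 C1q chains, made by macrophages, were not called. Of 27 further clotting genes 21 were tested, with 1 higher and 2 lower, against 4.12% and 3.52% of all tested genes, and a median of -0.044. Thbd, thrombomodulin, the endothelial receptor through which thrombin activates protein C, was at 6.88 ± 1.54 and 4.20 ± 0.889 CPM (SD, n = 5 each, log2 fold change 0.72, SE 0.19, edgeR adjusted p = 0.018). F3, tissue factor, which starts clotting, was at 3.79 ± 0.611 and 6.32 ± 1.04 CPM without overlap (SD, n = 5 each, log2 fold change -0.73, SE 0.14, edgeR adjusted p = 0.0063). The third, Rgn (log2 fold change -0.24, edgeR adjusted p = 0.042), encodes regucalcin, a calcium-binding lactonase and not a clotting protein. Of 9 tested genes for carboxylation, processing and secretion of these factors, only Furin, a propeptide-cleaving protease, was called, at 390.4 ± 22.3 against 334 ± 14.2 CPM (SD, n = 5 each, log2 fold change 0.23, SE 0.045, edgeR adjusted p = 0.024), and the vitamin K-dependent carboxylase Ggcx was not (log2 fold change -0.036, edgeR adjusted p = 0.80).

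Among 18 genes for liver transcription factors and IL-6 signalling, 4 were higher and 4 lower, against 4.12% and 3.52% of all tested genes, with a median log2 fold change of 0.033. The list was chosen with earlier results of these data known. Higher were Cebpb (2.0) and Cebpd (2.17), C/EBP factors of the acute-phase response, Il6ra (1.1), the IL-6 receptor, and Hnf4a (0.45), a hepatocyte nuclear receptor. Lower were Socs3 (-1.18), a feedback inhibitor of IL-6 signalling, Foxa2 (-1.49), Foxa1 (-0.66) and Cebpa (-0.29). The estimate for Stat3 itself was 0.24 (edgeR adjusted p = 0.053). The part of these genes in the levels of the factors was not tested.

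Markers of other liver cells were counted in the same fit, in which 4.12% of all tested genes were called higher and 3.52% lower. Endothelial markers had 1 of 12 higher (Lyve1, log2 fold change 0.84) and 1 lower (Clec4g, -0.48), and their sum was 314 to 443 CPM in GF+MEV and 382 to 448 CPM in GF+PBS livers. Leukocyte markers had 2 of 6 lower (Cd79a, -0.87, and Cd79b, -0.76, both of B cells), with sums of 41.8 to 79.8 and 58.1 to 73.8 CPM. Krt19, of bile duct cells, was 1 of 4 cholangiocyte markers tested and was higher (3.87), with sums of 44.6 to 96.3 and 41.2 to 50.2 CPM. The 96.3 CPM was in GF+MEV replicate 2, the library that stood apart, and the other GF+MEV livers summed to 44.6 to 61.2 CPM. Of 11 hepatocyte markers Ass1 (0.36) and Cps1 (0.38) were higher, none was lower, and their sums of 111095 to 133208 and 115143 to 134260 CPM overlapped. No Kupffer, stellate, platelet or skeletal muscle marker was called, although muscle transcripts reached 765 CPM in GF+PBS livers against 342 CPM at most in GF+MEV. The part of these cells in the 4 calls was not tested.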

How the data were processed

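Total RNA was extracted from whole liver and libraries were made with the NEBNext Ultra kit for Illumina. The authors deposited raw read counts per Ensembl gene, without normalization. They had aligned reads to GRCm38 with STAR 2.7.3a (after bcl2fastq 2.17, both versions per the submitters' processing notes), used HTSeq for counting and removed every gene that had under 20 counts when all samples were added. The HTSeq version, its mode and its use of strand are not given in the sources used here. The table held 5 further columns of values that match no described sample and were not used.

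Symbols, positions and exon lengths came from GENCODE M21 on GRCm38, and 5 of 12148 genes had no symbol. Counts were normalized by TMM and compared on treatment group alone with edgeR 4.0.16 (estimateDisp, glmQLFit, glmQLFTest) in R 4.3.3, over genes with at least 20 counts in all. Libraries held 15746119 to 20523649 counts, and among members Cfb, with as few as 16, was the least precisely counted. Standard errors were taken over livers on log2 CPM (prior count 2), and 95% intervals from limma-voom (limma 3.58.1), a value that differs slightly from edgeR's estimate. For ratios of 2 genes, group labels were permuted exactly and two-sided over the 252 labelings of 5 mice against 5, which cannot give a p under 0.00794. The fits were tested on simulated data. P-values measure the spread between separate mice of 1 experiment. Replicate numbers are those of the sample titles.

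The 39 members and all lists were chosen with earlier results of these data known. Values in every liver are given for each called member, for the 3 uncalled members of each system with the smallest p, and for Fga, Fgb, Fgg and C3. Of the other lists the called genes are named, except that 1 result among the further complement genes is not reported here. Stat3, Ggcx, C7, the C1q chains and the genes of the library that stood apart were named after their values were seen, as were Procr, C4a and the per-liver values of Per3 and Arntl. Shared stretches were all 50-base runs of a member's GENCODE transcripts that also occur in transcripts of another gene. Alternatives were DESeq2 1.42.0, limma-voom, 3 other scalings, no filter, a minimum of 10 counts per library, a replicate block, the alike GF+PBS livers summed, and each of the 10 livers left out.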

Additional observations from a re-analysis of the deposited data

Results flagged for a closer look

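Among 86 groups of 5 values tested, 6 held 1 value far from the rest of its group by Dixon's test at the 95% level, where chance gives about 1 in 20, or 4.3 of 86. In GF+MEV replicate 4, C8b was at 529 CPM against 385 to 410.4 CPM in the other 4 livers of the group, C9 at 473 CPM against 268 to 326 CPM, and Cfi at 609 CPM against 552 to 568 CPM. C4b was at 1441 CPM in GF+PBS replicate 2, with 1105 to 1167 CPM in the other controls. F12 was at 705 CPM in GF+PBS replicate 4, with 600.4 to 629 CPM in the others. For GF+MEV replicate 2 the TMM scaling gave a factor of 0.890, and its group otherwise spanned 0.978 to 1.01. Without GF+MEV replicate 4 the edgeR log2 fold change of C8b was 0.25 (adjusted p = 0.037) and that of C9 0.23 (adjusted p = 0.099).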

How the results depend on the processing

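With 19 alternatives run for each result, the 4 calls differed in how far they held. The complement count of 3 became 5 with DESeq2 (C6, C8a, C8b, C9 and Hc), 1 with library size alone (C6) and 1 with the alike GF+PBS livers summed (C8a), and ran from 1 to 5 with a liver left out. It was 1 without GF+PBS replicate 4 or 5, and 5 without GF+MEV replicate 5. The coagulation count of 1 became 0 with upper quartile, library size alone, the replicate block and the summed livers, and 0 or 1 with a liver left out (0 without GF+MEV replicate 3, 4 or 5 or GF+PBS replicate 3, 4 or 5). The count over all genes, 928, fell to 561 with the summed livers, which leave fewer samples, and ran from 696 to 926 with a liver left out. DESeq2 called 1201 genes. Calls higher made up 53.9% of all calls, but 41.2% with upper quartile and 32.5% with library size alone.

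With library size alone, estimates above 0 fell from 15 to 9 of 19 complement and from 16 to 7 of 20 coagulation factors. Of the 14 factors followed through all 19 alternatives, Fgb, Fgg and C3, none of them called, turned sign. Fgb was -0.021 with upper quartile and -0.051 with library size alone, and -0.0052 to 0.049 with a liver left out. Fgg was -0.033, -0.063, and -0.036 to 0.074, and C3 -0.0072 with library size alone. With library size alone the median over all genes was -0.078. Relative to that median, Fgb was at 0.027, Fgg at 0.016 and C3 at 0.071. The median relative to all genes was then 0.071 over the complement and 0.034 over the coagulation factors. The cause of the turns with a liver left out was not tested. With the replicate number as a block, edgeR called 792 genes, 2 complement factors (C6 and C8a) and 0 coagulation factors, with C8b at an adjusted p of 0.057 and Pros1 at 0.11. The numbers did not pair the livers. Deviations of same-numbered livers from their group means correlated at -0.19 to 0.17, and 2 of 5 livers correlated best with their own number. Cfb, with as few as 16 counts in a liver, had the lowest counts of the factors. Its reads may also have gone uncounted where they match the overlapping gene Gm20547.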

Other observations

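Per length, C3 and the 3 fibrinogen chains, at percentiles 99.6 to 99.7 of all tested genes, had limma-voom 95% intervals within -0.15 to 0.26 on the log2 scale. The called factors lay at percentiles 97.6 (C8a), 97.2 (C8b), 92.9 (C6) and 78.6 (Pros1). Pros1 and Thbd, higher, and Proc and Procr, not called, all belong to the protein C pathway. Procr was at 0.383 ± 0.101 CPM in GF+MEV and 0.657 ± 0.188 CPM in GF+PBS livers (SD, n = 5 each, log2 fold change -0.76, edgeR adjusted p = 0.17). C4a, the near copy of C4b, was at 10.6 ± 5.05 and 6.23 ± 2.05 CPM (SD, n = 5 each, log2 fold change 0.77, edgeR adjusted p = 0.15), with its 2 highest values, 14.7 and 16.8 CPM, in GF+MEV replicates 2 and 4, the same livers in which C6 was highest.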
